A study of Amolops torrentis with 15 samples.

Results

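GABA and glycine carry fast inhibition in the vertebrate brain, and the genes that make, load, sense, clear and break down these transmitters were followed here in the whole brain of female torrent frogs (Amolops torrentis). Members were all features whose deposited Swiss-Prot description begins with the name of a GABA receptor protein, a glycine receptor subunit, glutamate decarboxylase, a GABA or glycine transporter, the vesicular inhibitory amino acid transporter, gephyrin or 4-aminobutyrate aminotransferase. This gave 57 of the 44351 features in the table, under 30 gene symbols. The study set brain gene expression of females beside acoustic and visual sexual cues. It holds 15 libraries, 3 for each stimulus: an acoustic cue, a visual cue, the audiovisual pair of cues, a dark contrast and a blank contrast. No genotype, age or further agent is given, and what was presented in the dark contrast and in the blank contrast is not stated. Nor is it stated whether a library is 1 frog or a pool, so p-values below cover the spread between libraries only, and that spread could be technical in part.

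In background terms, glutamate decarboxylase makes GABA from glutamate, and the vesicular transporter loads GABA and glycine into synaptic vesicles. Released GABA opens chloride channels built of GABA-A receptor subunits and acts more slowly through GABA-B receptors, while glycine opens channels of alpha and beta subunits that are best known from the brainstem and spinal cord. Gephyrin holds many of these channels at the synapse, membrane transporters take the transmitters back up, and 4-aminobutyrate aminotransferase breaks GABA down. In frogs, inhibitory neurons of the auditory midbrain are known for shaping selectivity to the timing of calls.

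A feature is a clustered transcript assembled without a genome, so it has no genome position, and reads of 1 gene can be divided between several features. Of the 30 symbols, 17 stood on several features and 13 on a single one. Levels are given as FPKM (the authors' fragment values per length of feature and size of library), which may be set beside each other between genes, or as CPM (counts scaled to the library total, with TMM factors), which is used to compare libraries. Total counts per library ran from 12071194 in dark contrast 1 to 16829356 in audiovisual 3, and the members held 0.411% (dark contrast 1) to 0.534% (blank contrast 1) of them. The members were longer than features at large, with a median length of 2220 bases against 1152, and more abundant, with a median of mean FPKM of 10.4 against 4.72. Of the pan-neuronal marker symbols 14 of 16 were found, with a summed level of 10426 to 11500 CPM over the libraries, so the tissue carried neuronal RNA throughout. The closest match in the second deposited description (NR) named a GABA or glycine protein for 44 members and another or uninformative protein for 13. Another 2 features outside the rule have an NR name of this kind, a partial GABA-B receptor subunit 2 (mean FPKM 4.99) and a gephyrin isoform (2.53), and are not counted here.

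The genes of GABA synthesis and vesicular loading were among the most abundant members. GAD1, the form of the enzyme that supplies most of the GABA in mammalian neurons, ranged over the 15 libraries from 72.7 to 114 FPKM with a median of 95.4. GAD2, the synaptic form of the enzyme, had 1 feature (Cluster-46846.161435) at 23.2 to 111 FPKM (median 69.7) and another (Cluster-46846.154669) at 13.9 to 64.7 FPKM (median 33.0). The main feature of SLC32A1, the vesicular inhibitory amino acid transporter, was at 152 to 192 FPKM (median 168), a ratio of highest to lowest of 1.27. The level of this feature thus varied less over the 15 libraries than that of GAD1 (1.57) or of either GAD2 feature (4.77 and 4.64). The minor SLC32A1 feature had a ratio of 2.62. Summed over features, SLC32A1 ran from 506 to 663 CPM and GAD2 from 280 to 577 CPM.

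**Figure D1:**
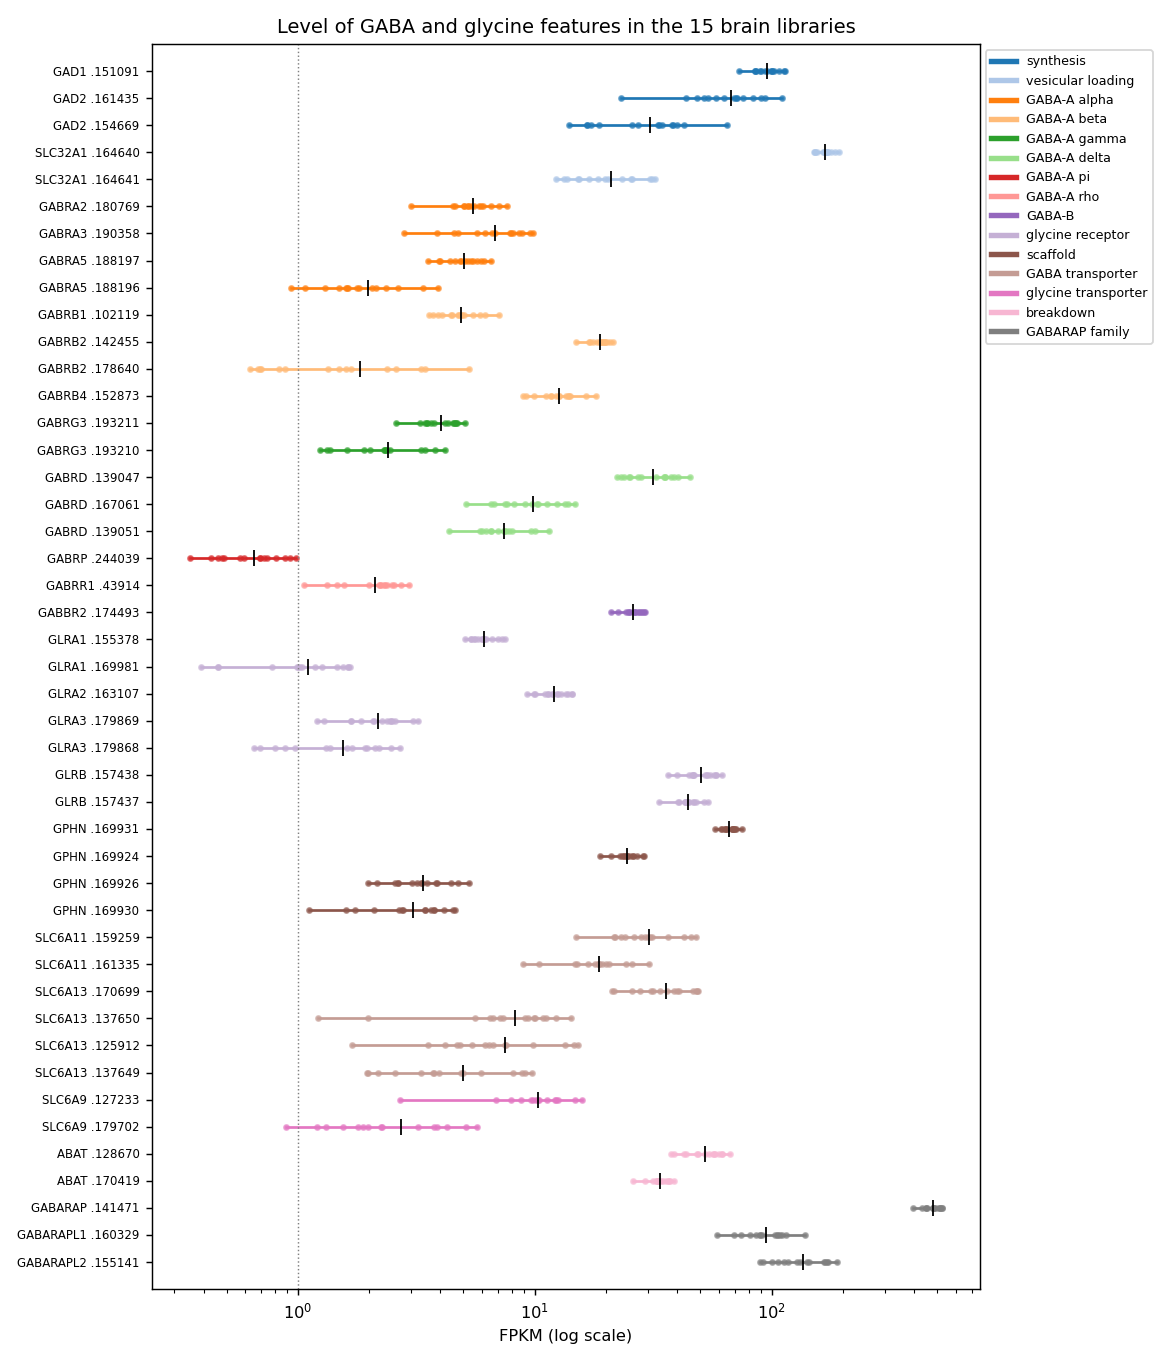
FPKM (log axis) of 45 features of 26 symbols in the 15 libraries, 1 row per feature, with the end of its cluster number after the symbol; points are libraries, the line joins the lowest and highest, and the black tick is the mean. GABARAP and the main SLC32A1 feature lie high with narrow ranges, while minor features of SLC6A13 and GABRB2 spread up to 11.7-fold and 8.38-fold, and GABRP lies wholly under 1 FPKM (dotted line).

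GABA-A receptors are pentamers, and their most common form in mammalian brain joins alpha, beta and gamma subunits. Of the alpha subunits, the main features of GABRA3 (2.82 to 9.83 FPKM), GABRA2 (3.0 to 7.63) and GABRA5 (3.54 to 6.52) had overlapping ranges. Among the beta subunits GABRB2 was at 15 to 21.4 FPKM (median 19.2). GABRB4, a beta subunit first described in birds whose NR match here is the theta subunit, was at 8.93 to 18.1 FPKM, and GABRB1 (3.58 to 7.10) was lower. The gamma subunit GABRG3 was at 2.61 to 5.09 FPKM on its main feature. GABRD, the delta subunit of extrasynaptic receptors, stood on 3 features, of which the shortest was at 22.3 to 45.3 FPKM and the others at medians of 9.71 and 7.44. GABRR1, a rho subunit best known from the retina, was at 1.06 to 2.95 FPKM. The pi subunit GABRP, in mammals mainly found outside the brain, had the lowest level of all members (0.35 to 0.98 FPKM, mean 0.654), and it was the only member below the filter of a mean FPKM of 1 that was set for testing.

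GABBR2, the subunit through which GABA-B receptors couple to G proteins, was at 21.1 to 29.2 FPKM (median 26.4). No member was matched to GABBR1, the GABA-binding subunit of this receptor, which is not analysed here. Of the glycine receptor subunits, GLRB, the beta subunit that binds gephyrin, was highest, with features at medians of 52.2 and 43.9 FPKM. GLRA2, the alpha subunit of the developing mammalian brain, was at 9.27 to 14.4 FPKM, GLRA1, the alpha subunit of the adult mammalian spinal cord, at 5.10 to 7.51, and GLRA3 at 1.21 to 3.22 on its main feature. Gephyrin (GPHN) was at 57.8 to 75.2 FPKM on its main feature, a ratio of highest to lowest of 1.30.

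Of the membrane transporters of GABA, SLC6A11, in rodents a transporter mainly of astrocytes (GAT3), had features at 14.9 to 47.9 and 8.93 to 30.4 FPKM. SLC6A13 (GAT2), in mammals mainly found in the meninges and outside the brain, was at 21.3 to 49.1 FPKM on its main feature, whose NR match is the related betaine transporter. The glycine transporter SLC6A9 (GLYT1) was at medians of 10.4 and 2.24 FPKM on its 2 features. ABAT, which breaks GABA down in mitochondria, was at medians of 54.3 and 33.5 FPKM. The wording of the rule also took in 3 genes of the GABARAP family, which in all tissues serve autophagy and membrane traffic: GABARAP at 396 to 524 FPKM (its NR match is a phosphatase, so it is uncertain), GABARAPL2 at 89.8 to 189 and GABARAPL1 at 58.8 to 138.

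The proportions of the enzymes of GABA synthesis and of the glycine receptor alpha subunits were described within each family. FPKM was summed over the features of a symbol and expressed as a share of its family, with no test. GLRA2 held 52.4% ± 5.23 (SD, n = 15) of the glycine receptor alpha FPKM, GLRA1 31.4% ± 3.50 and GLRA3 16.2% ± 2.73. GLRA2 led in every library, at 42.8% or more against at most 39.4% for GLRA1. GAD1 and GAD2 were close to equal, with GAD1 at 49.6% ± 3.55 of their sum. Since features of a gene can be pieces of 1 transcript, these shares depend on how features are combined: with only the most abundant feature of each symbol, GLRA2 held 59.1% and GAD1 59.6%.

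**Figure D2:**
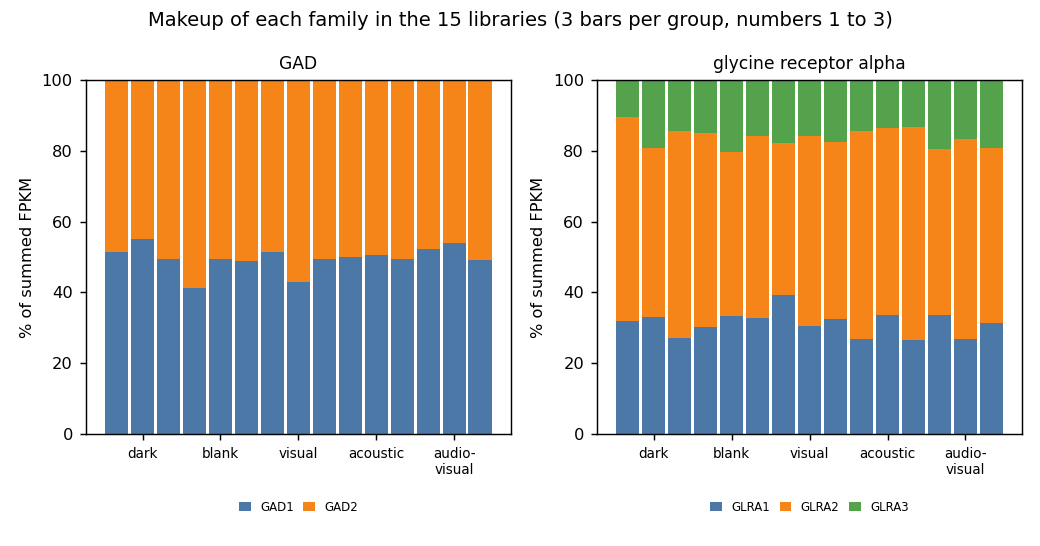
Share (%) of the summed FPKM of GAD genes (left) and of glycine receptor alpha genes (right) held by each gene, 1 bar per library, 3 bars per group in the order of their numbers. GAD1 stays between 41.4% and 55.1% and GLRA2 at 42.8% or above in the 15 libraries.

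By group, GAD1 held 52.0% ± 2.88 (SD, n = 3) of the GAD FPKM in dark contrast brains, 46.5% ± 4.48 in blank contrast, 47.9% ± 4.43 in visual, 50.0% ± 0.561 in acoustic and 51.8% ± 2.42 in audiovisual brains. GLRA3 held 14.7% ± 4.32 of the glycine receptor alpha FPKM in dark contrast, 17.1% ± 2.93 in blank contrast, 17% ± 1.02 in visual, 13.9% ± 0.570 in acoustic and 18.5% ± 1.46 in audiovisual brains. The dark contrast libraries overlapped with all other groups in both shares. For GLRA3 the acoustic libraries, at 13.4% to 14.5%, lay below every blank contrast, visual and audiovisual library, though only narrowly below blank contrast 1. The main GLRA3 feature alone did not show this. Its means were 2.27 FPKM in acoustic, 2.03 in blank contrast, 2.17 in visual and 2.47 in audiovisual brains, and these groups overlapped. The separation of the summed shares thus depends on the minor feature, and it was not tested.

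For GAD2 the division of reads between features varied from library to library. Its features, both named GAD2 in NR as well, did not rise and fall together. The share of the first feature in their summed CPM ran from 27.6% in dark contrast 2 to 87.3% in audiovisual 1, with a median of 73.4%. On the log2 scale the SD over the 15 libraries was 0.56 for the first feature and 0.63 for the second, but 0.26 for their sum. Summed values are therefore given beside the feature values of genes with several features below. The features of SLC6A11 did not trade reads in this way, with SDs of 0.46 for each and 0.44 for the sum.

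**Figure D3:**
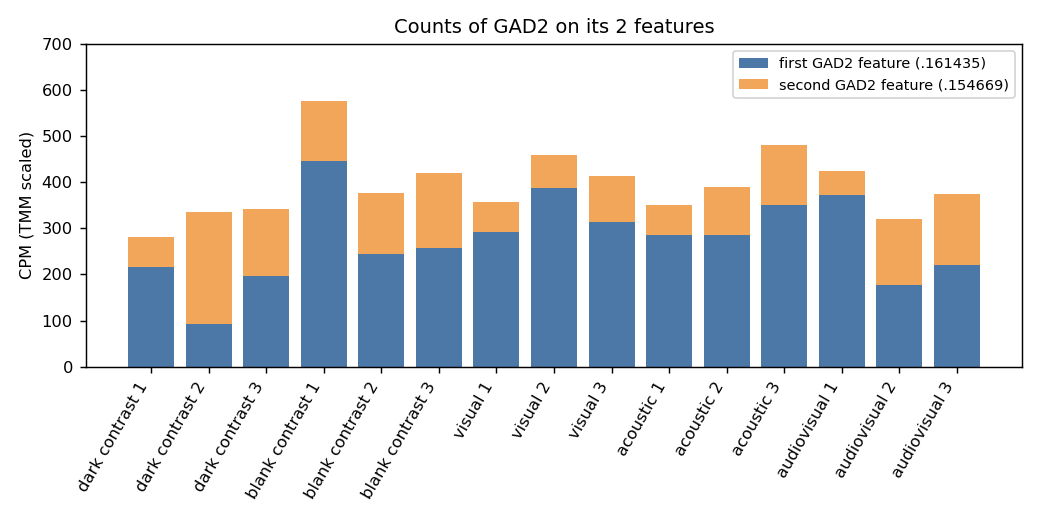
CPM of the first (blue) and second (orange) GAD2 feature in each library, stacked. The second feature outweighs the first only in dark contrast 2, where it holds 243 of 335 CPM, and the sum is lowest in dark contrast 1 (280 CPM) and highest in blank contrast 1 (577 CPM).

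No member was called in any comparison. Each of the 12 comparisons and an F test over the 5 groups was made with edgeR's quasi-likelihood test on the 42619 features that reached a mean FPKM of 1, of which 56 are members. edgeR called 0 of the 56 members at an adjusted p under 0.05 in every comparison, as it called 0 of all features (0%). limma on log2(FPKM + 1) and DESeq2 also called 0 members, although DESeq2 called 17 to 47 features elsewhere in the 12 comparisons. In the F test 1 member had an unadjusted p under 0.05 (1.79% of members, 4.74% of all features). The smallest p-values of the F test were those of SLC6A13 (Cluster-46846.137649), GAD2 (Cluster-46846.161435) and SLC6A11 (Cluster-46846.159259), each with an edgeR adjusted p of 0.999. The sections that follow therefore give values and not calls.

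**Figure D4:**
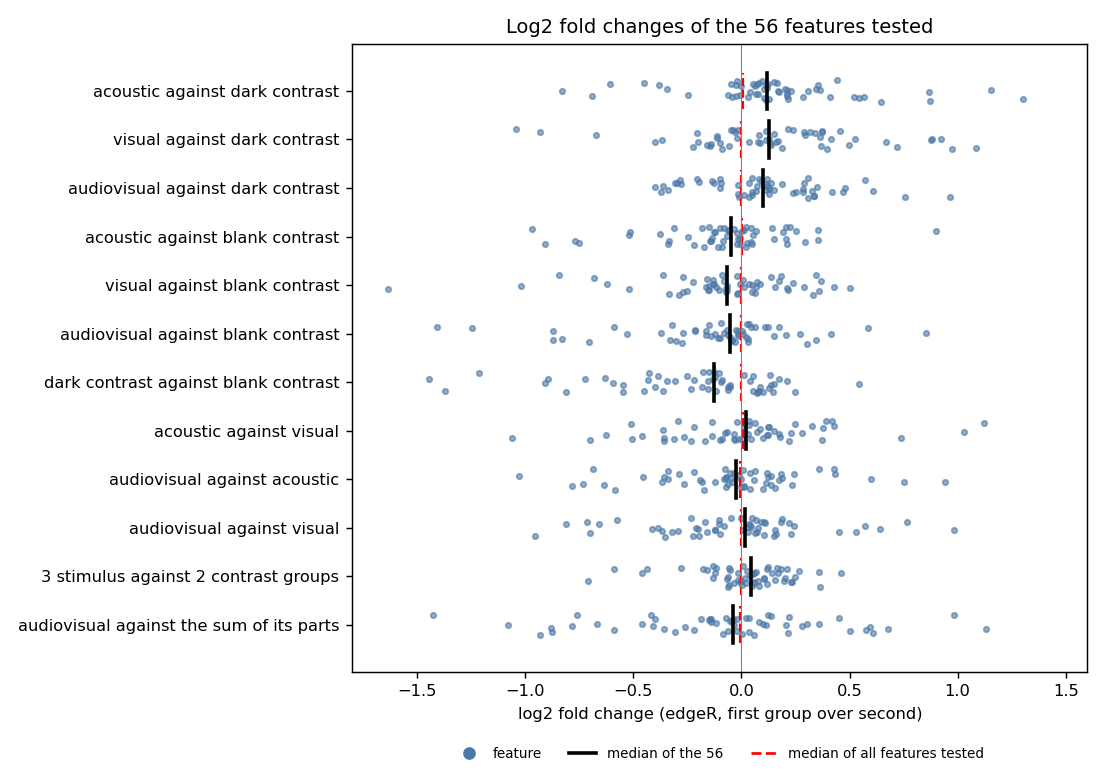
Log2 fold changes (edgeR) of the 56 members tested, 1 row per comparison and 1 point per feature, with the median of the members (black) and of all 42619 features (red dashes). The 3 stimulus groups lie to the right of 0 against dark contrast (medians 0.10 to 0.13), dark against blank contrast lies to the left (-0.13), and the other medians lie between -0.07 and 0.04.

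Dark contrast brains sat low against blank contrast brains over much of the set. Below 0 lay 38 of the 56 members (50% of all features), and their median log2 fold change was -0.13. Without the GABARAP family the median was -0.15. In 11 members every dark contrast library was below every blank contrast library (5.84% of all features were lower in this way), and none lay the other way. An unadjusted p under 0.05 was found for 3 members (5.36%, against 5.68% of all features). Among the 11 were features of GAD2, SLC32A1, SLC6A9, SLC6A11 (both), SLC6A13 (2), ABAT, GABRB2 and GABRR1. The sums of SLC32A1 (log2 fold change -0.09, SE 0.10), SLC6A9 (-0.48, SE 0.54) and ABAT (-0.13, SE 0.13) overlapped between the groups.

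Summed over its features, GAD2 was at 280, 335 and 342 CPM in dark contrast brains and at 577, 376 and 421 CPM in blank contrast brains. All 3 dark contrast libraries were lower, blank contrast 1 stood highest, and the log2 fold change of the sum was -0.52 (SE 0.17, edgeR adjusted p = 0.869). The first GAD2 feature alone had a log2 fold change of -0.91 (SE 0.33, edgeR adjusted p = 0.854), which with each of the 6 libraries left out in turn lay between -1.13 and -0.58, the latter without blank contrast 1. GAD1 was at 384, 548 and 437 CPM in dark contrast and 525, 479 and 523 CPM in blank contrast brains, and these ranges overlapped.

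SLC6A13 summed over its features was at 20.1, 24.7 and 24 CPM in dark contrast and 36.5, 37.1 and 35.1 CPM in blank contrast brains. The groups did not overlap, and the log2 fold change of the sum was -0.65 (SE 0.23, edgeR adjusted p = 0.869). The main SLC6A13 feature, whose NR match is the betaine transporter, held 47.3% to 86.1% of the summed CPM over the 15 libraries. This sum and the SLC6A13 sums below may therefore hold reads of another gene. The SLC6A13 features Cluster-46846.125912 and Cluster-46846.137649 had the lowest fold changes of all members in this comparison, at -1.44 (SE 0.56) and -1.37 (SE 0.50). Their counts were low, at 5 to 54 per library for the former (472 bases long) and 27 to 130 for the latter. The Swiss-Prot match of Cluster-46846.137649 was weak (E-value 7.3e-06), though NR names SLC6A13 for both features. GABRB2 summed to 41.3, 50.0 and 46.2 CPM in dark contrast and 57.2, 53.8 and 52.8 CPM in blank contrast brains. Its groups were also apart, with a smaller log2 fold change of -0.25 (SE 0.11, edgeR adjusted p = 0.881). At the level of summed symbols 5 of 29 did not overlap between the groups (GAD2, SLC6A13, SLC6A11, GABRB2 and GABRR1), all lower in dark contrast, where 11.1% of all summed symbols and single features did not overlap in either direction.

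Part of this offset rested on dark contrast 1, which was the lowest of the 15 libraries for 11 of the 56 members (19.6%, against 8.59% of all features). After centring each member on the log2 scale, the mean over members was -0.26 there and -0.07 to 0.16 in the rest. Without it the median of dark against blank contrast was -0.08, and without dark contrast 2 it was -0.22. In the same comparison 33 of 47 features of inhibitory neuron identity genes lay below 0 (median -0.14), as did 52 of 79 features of glutamatergic transmission genes (median -0.07) and 8 of 10 astrocyte features (median -0.17). The astrocyte features summed to 3227, 3541 and 2320 CPM in dark contrast and to 1812, 3387 and 2603 CPM in blank contrast brains. These sums overlapped, with the highest in dark contrast 2 and the lowest in blank contrast 1, unlike the median of the features. Pan-neuronal genes were near even, with 19 of 35 features below 0 (median -0.03). The pituitary markers summed to 404, 5070 and 455 CPM in dark contrast and to 22.4, 70.6 and 40.3 CPM in blank contrast brains, so that they did not overlap and were higher in dark contrast. The part of these other genes in the values of the members was not tested, and in whole brains fewer cells of a type and less RNA per cell cannot be told apart.

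The 3 stimulus groups were each compared with the same dark contrast libraries, so these comparisons share their controls. Against dark contrast, 41 of 56 members lay above 0 in acoustic brains (median 0.12, 50.6% of all features above 0), 35 in visual brains (median 0.13, 49.7%) and 38 in audiovisual brains (median 0.10, 49.5%). Unadjusted p values under 0.05 were found for 7 members in the acoustic comparison (12.5%, against 5.11% of all features), 3 in the visual (5.36%, against 5.3%) and 1 in the audiovisual (1.79%, against 5.23%). The groups did not overlap for 10 members in the acoustic comparison (10.2% of all features), 8 in the visual (10.6%) and 6 in the audiovisual (10.7%). Without dark contrast 1 the medians came to 0.03, 0.03 and 0.02, so the offset of the medians depended largely on that library. Without dark contrast 2 the visual median was 0.22.

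In the acoustic comparison the 7 members with an unadjusted p under 0.05 were features of transporters, GAD2 and GABA-A subunits. SLC6A13, at 28.5, 34.2 and 37.3 CPM in acoustic brains when summed, was above all 3 dark contrast libraries, with a log2 fold change of the sum of 0.54 (SE 0.23, edgeR adjusted p = 0.965). Its features Cluster-46846.125912 (1.30, SE 0.56) and Cluster-46846.137649 (1.15, SE 0.50) had the highest log2 fold changes, and the latter gave 0.76 without acoustic 1. GAD2 summed to 351, 390 and 481 CPM, again above all dark contrast libraries, with a log2 fold change of 0.35 (SE 0.17, edgeR adjusted p = 0.965), whereas its first feature alone gave 0.87 (SE 0.33, edgeR adjusted p = 0.973), and 0.58 without dark contrast 2. The other features with higher values were of SLC6A11 (0.65, SE 0.29) and GABRA5 (0.87, SE 0.38), whose sums gave 0.44 (SE 0.27) and 0.25 (SE 0.15). A lower value was found for the minor feature of SLC32A1 (Cluster-46846.164641, at a log2 fold change of -0.83 with SE 0.31, edgeR adjusted p = 0.973). A GLRA3 feature (Cluster-46846.179868) had a log2 fold change of -0.69 (SE 0.46), and the sum of GLRA3 one of -0.12 (SE 0.22). The sum over both SLC32A1 features, of whose counts the main feature holds 82.4% to 93.1%, had a log2 fold change of 0.00 (SE 0.10). Each of these 7 members had an unadjusted p over 0.05 when some 1 of the 6 libraries was left out.

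In the visual comparison the first GAD2 feature had the smallest p (log2 fold change 0.97, SE 0.33, edgeR adjusted p = 0.914). Its second feature had a log2 fold change of -0.93 (SE 0.44). Summed, GAD2 was at 357, 458 and 413 CPM in visual brains, above all dark contrast libraries, with a log2 fold change of 0.36 (SE 0.17, edgeR adjusted p = 0.909). GLRB summed to 149, 171 and 186 CPM in dark contrast and 189, 203 and 218 CPM in visual brains. These groups did not overlap, and the log2 fold change was 0.27 (SE 0.12, edgeR adjusted p = 0.909). SLC6A13 summed to 23.0, 38.7 and 44.4 CPM in visual brains, of which visual 1 lay among the dark contrast libraries. In the audiovisual comparison an ABAT feature had a log2 fold change of 0.42 (SE 0.20) and a GABRG3 feature one of 0.76 (SE 0.41), while their sums gave 0.15 (SE 0.13) and 0.10 (SE 0.17). The lowest values were those of the minor SLC32A1 feature (-0.40, SE 0.31, with a sum at 0.02, SE 0.10) and GABRB4 (-0.37, SE 0.21).

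**Figure D5:**
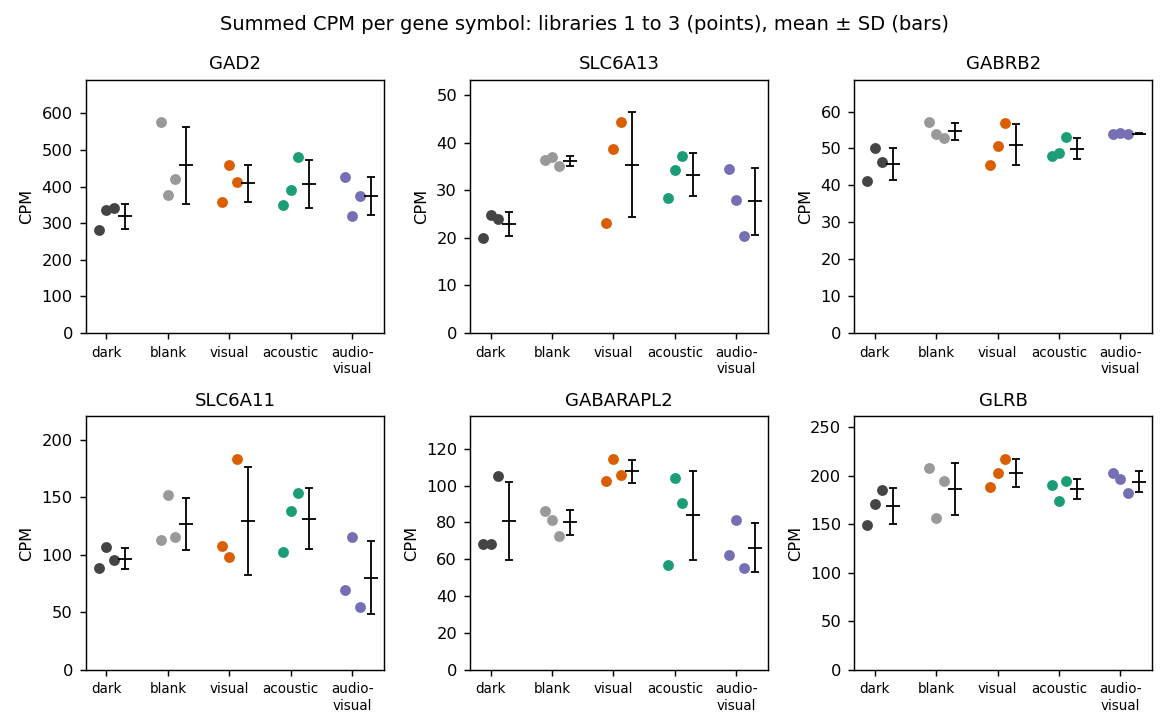
CPM summed over the features of 6 genes in each library (points, numbers 1 to 3 from left to right in each group) with the mean ± SD of 3 libraries. GAD2, SLC6A13 and GABRB2 are lowest on average in dark contrast brains, SLC6A11 and GABARAPL2 in audiovisual brains, and GLRB lies at 149 to 186 CPM in dark contrast and 189 to 218 CPM in visual brains.

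Against blank contrast the stimulus groups, which again share their controls, lay slightly lower. Of the 56 members 34 were below 0 in acoustic brains (median -0.05, 49.5% of all features below 0), 33 in visual brains (median -0.07, 50.5%) and 36 in audiovisual brains (median -0.05, 50.5%). The groups did not overlap for 4 members in each comparison (9.72%, 10.4% and 9.98% of all features). Unadjusted p values under 0.05 were found for 2 members in acoustic (3.57%, against 4.42% of all features), 1 in visual (1.79%, against 4.66%) and 3 in audiovisual brains (5.36%, against 4.54%). The acoustic pair were a SLC6A9 feature (Cluster-46846.127233, at a log2 fold change of -0.97 with SE 0.37, edgeR adjusted p = 1) and the minor SLC32A1 feature (-0.75, SE 0.31). Their sums gave -0.41 (SE 0.54) and -0.09 (SE 0.10), and without acoustic 3 the SLC6A9 feature was at -0.59. The visual one was the main GABRA5 feature (0.50, SE 0.19, edgeR adjusted p = 1), at 22.7, 28.6 and 27.1 CPM in visual and 17, 22.8 and 15.5 CPM in blank contrast brains, which overlap narrowly. The GABRA5 sum gave 0.17 (SE 0.15). Among the audiovisual features were those of SLC6A13 (-1.24, SE 0.50) and SLC6A11 (-0.70, SE 0.30), whose sums gave -0.38 (SE 0.23) and -0.66 (SE 0.27).

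Between the stimulus groups the members were spread evenly around 0. Of 56 members 30 lay above 0 in acoustic against visual (median 0.02, 50.8% of all features above 0), 25 in audiovisual against acoustic (median -0.02, 49.1%) and 30 in audiovisual against visual brains (median 0.02, 50%). The groups did not overlap for 6 (10.4% of all features), 5 (10.3%) and 1 (9.83%) of them. An unadjusted p under 0.05 was found for 1 (5.01% of all features), 4 (4.9%) and 3 (4.57%). In acoustic against visual this was a GLRA3 feature (Cluster-46846.179868, log2 fold change -1.06, SE 0.47, edgeR adjusted p = 0.993), followed by the main GABRG3 feature (0.43, SE 0.20). The sums of GLRA3 and GABRG3 gave -0.37 (SE 0.22) and 0.10 (SE 0.17). In all stimulus against both contrast groups 34 of 56 members lay above 0 (median 0.04, 49.8% of all features above 0), with 1 member at an unadjusted p under 0.05 (4.7% of all features), the minor SLC32A1 feature (-0.44, SE 0.20), beside a sum at 0.00 (SE 0.06).

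SLC6A11, the astrocyte GABA transporter of rodents, was at its lowest in 2 of the 3 audiovisual libraries. Summed over its features it was at 88.0, 107 and 95 CPM in dark contrast, 113, 152 and 115 CPM in blank contrast, 107, 97.6 and 184 CPM in visual, 102, 138 and 154 CPM in acoustic and 69.7, 115 and 54.6 CPM in audiovisual brains. Audiovisual 1 and 3 held the lowest values of all 15 libraries, while audiovisual 2 lay within the other groups. The log2 fold change of audiovisual brains was -0.71 (SE 0.27, edgeR adjusted p = 0.973) against acoustic, -0.70 (SE 0.27, edgeR adjusted p = 0.999) against visual, -0.66 (SE 0.27, edgeR adjusted p = 1) against blank contrast, and -0.27 (SE 0.27, edgeR adjusted p = 0.968) against dark contrast. These comparisons share the audiovisual libraries. Against visual brains the log2 fold changes of Cluster-46846.161335 and Cluster-46846.159259 were -0.71 and -0.66, and without visual 3, the library at 184 CPM, they were -0.36 and -0.35. For Cluster-46846.161335 against acoustic brains the value of -0.68 was -0.47 without audiovisual 3 and -1.11 without audiovisual 2. Audiovisual 1 and 3 also held much POMC, the pituitary hormone precursor, at 1820 and 7712 CPM against 54.3 CPM in audiovisual 2. The 10 astrocyte features summed to 3245, 3188 and 1891 CPM in audiovisual 1 to 3 and to 1812 to 3814 CPM in the other 12 libraries. With each feature centred on the log2 scale, their mean was 0.14, 0.16 and -0.055 in audiovisual 1 to 3. In the other 12 libraries it was -0.32 to 0.26. The most abundant SLC1A3 feature, of the same marker list, was at 578, 451 and 613 CPM in audiovisual 1 to 3. Elsewhere it was at 271 to 518 CPM. GLUL, also on this list, was lower in audiovisual than in acoustic and visual brains, as was SLC6A11 (GLUL values are given below). GLUL was named for its smallest p in these comparisons among genes around the inhibitory synapse, so it was chosen with its direction known. The astrocyte markers thus did not move together. The pituitary markers, 2 of 11 symbols found, summed to 2474 and 9600 CPM in audiovisual 1 and 3 and to 19.6 to 5070 CPM in the other 13 libraries. Dark contrast 2 and acoustic 2, with POMC at 5055 and 1941 CPM, had SLC6A11 at 107 and 138 CPM. The part of pituitary tissue in the SLC6A11 values was not tested.

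GABARAPL2, of the autophagy family, was at 102, 115 and 106 CPM in visual and 62.5, 81.2 and 55.2 CPM in audiovisual brains. All visual libraries were higher than all audiovisual ones, and the log2 fold change was -0.70 (SE 0.22, edgeR adjusted p = 1). Its unadjusted p was the smallest of any member in any comparison. It was the only member whose groups did not overlap between audiovisual and visual brains, where 9.83% of all features did not overlap. With each library left out in turn the fold change lay between -0.87 and -0.58.

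The audiovisual group was also set against the sum of its parts, that is, audiovisual plus the mean of both contrast groups against acoustic plus visual brains on the log2 scale. Of 56 members 32 lay below 0 (median -0.04, 50.6% of all features below 0), and 4 had an unadjusted p under 0.05 (7.14%, against 4.51% of all features). These were both SLC6A11 features (-1.08, SE 0.38, and -0.88, SE 0.39), GABARAPL2 (-0.76, SE 0.29) and a SLC6A13 feature (-1.42, SE 0.64), with edgeR adjusted p of 1. Without visual 3 the second of the SLC6A11 features, Cluster-46846.161335, was at -0.53. The sums of SLC6A11 and SLC6A13 gave -0.94 (SE 0.36) and -0.56 (SE 0.30). Among members with a mean CPM of at least 1, the second GAD2 feature (1.13, SE 0.58) and a GLRA3 feature (0.68, SE 0.61) were highest. The sums of GAD2 and GLRA3 gave -0.22 (SE 0.22) and 0.23 (SE 0.29).

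Genes that work around the inhibitory synapse but fall outside the rule gave the same picture of no calls. The list held 49 genes (neuroligins, neurexins, chloride transporters, glutaminases and others). It also named SLC6A13 and GABARAPL2, which fall under the rule and were counted only as members. Of the list 40 genes were found, on 112 features, and edgeR called 0 of them higher and 0 lower in every comparison. In dark against blank contrast 57 lay below 0 and 55 above (median -0.01), with 11 of the 112 at an unadjusted p under 0.05 (5.68% of all features). The other 11 comparisons had 1 to 6 of the 112 (4.42% to 5.3% of all features). The smallest p in dark against blank contrast was that of SLC38A1, a glutamine transporter (log2 fold change -0.39, SE 0.12, edgeR adjusted p = 0.846). In visual against dark contrast it was PTPRD, a synaptic adhesion phosphatase (1.65, SE 0.57, edgeR adjusted p = 0.914), and in audiovisual against dark contrast the potassium channel KCNJ9 (-0.86, SE 0.25, edgeR adjusted p = 0.934). Against blank contrast it was ALDH5A1, which completes GABA breakdown (acoustic, 0.67, SE 0.22), CASK (visual, 1.01, SE 0.42) and NLGN3 (audiovisual, -1.49, SE 0.43). For audiovisual brains it was GLUL, glutamine synthetase of astrocytes, against both acoustic (-0.45, SE 0.14) and visual brains (-0.54, SE 0.14). GLUL was also first in audiovisual against the sum of its parts (-0.73, SE 0.19, edgeR adjusted p = 0.942), and NRXN2 in all stimulus against both contrast groups (0.31, SE 0.13). Of 34 inhibitory neuron identity genes 25 were found, on 47 features, and none was called. The transcription factor SP8 had the smallest p among them in dark against blank contrast (-1.53, SE 0.35, edgeR adjusted p = 0.777). Of the retina markers 2 of 16 symbols were found, summing to 22.8 to 38.2 CPM.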

How the data were processed

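The deposited table holds, per the file headers, estimated counts and FPKM per feature computed by the authors, and gene descriptions. Of the estimated counts 57.4% are whole to within 1e-06. The assembler, aligner and quantifier: not given in the sources used here. Libraries were paired reads of 150 bases, per the labels. The lowest FPKM in any library is 0.31, so features lower in a single library are not analysed here. Estimated counts were rounded, features under a mean FPKM of 1 dropped, and all 15 libraries fitted by group with edgeR 4.0.16 (TMM, quasi-likelihood, residual degrees of freedom 10, biological coefficient of variation 0.329 in common), with Benjamini-Hochberg adjustment over all 42619 features and a threshold of 0.05. limma 3.58.1 on log2(FPKM + 1) and DESeq2 1.42.0 in R 4.3.3 were alternatives. The SE of a fold change is its size over the square root of F. Named were each gene's most abundant feature, the smallest p values and extreme fold changes per comparison (mean CPM of at least 1), and the pathway gene of smallest p. Marker lists (oligodendrocyte, microglia, choroid plexus, blood and muscle too, with 0 features called) are described by counts. Members and lists were chosen with earlier results of these data known. Some members and pathway genes are in the fits and counts and are not reported here by name. The procedure was tested on simulated data, with 100 features changed 2-fold and 100 changed 4-fold in dark contrast. In dark against blank contrast it called 9 and 56 of these, and 4 unchanged features. Counts were also summed per symbol, with unnamed features kept single.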

Additional observations from a re-analysis of the deposited data

How the results depend on the processing

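No member was called under any alternative: median-of-ratios scaling, no filter, a filter of FPKM 1 in 3 libraries, the replicate number as a block, limma with pseudocounts of 1 and 0.1, DESeq2, only the groups compared, counts summed per symbol, and each of the 15 libraries left out. Fitting only the groups compared gave no separate value for the F test and the 2 comparisons of several groups. The median log2 fold change of the members against dark contrast ranged with a library left out from 0.0282 to 0.174 (acoustic), 0.0311 to 0.219 (visual) and 0.0155 to 0.156 (audiovisual), and in dark against blank contrast from -0.218 to -0.0828; the ends at 0.0282, 0.0311 and 0.0155 and at -0.0828 are without dark contrast 1, and those at 0.219, 0.156 and -0.218 without dark contrast 2. The median turned sign under 4 of 25 alternatives in acoustic against visual, 4 of 25 in audiovisual against acoustic and 5 of 25 in audiovisual against visual, all near 0; in the other 9 comparisons it kept its sign under every alternative. With only the most abundant feature of each symbol, an alternative chosen after seeing the data, as was leaving out the GABARAP family, shares became 59.6% for GAD1, 40.4% for GAD2, 59.1% for GLRA2 and 10.7% for GLRA3. That alternative uses fewer features by construction. Libraries of the same number in different groups did not deviate together (30 pairs, correlations -0.036 to 0.050, none over 0.1; 7 of 15 libraries correlated best with their own number), so the numbers were not taken as pairs, and the fit with the replicate block called 0 members. With 3 libraries a group, differences in these genes, sizeable ones included, could go uncalled.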
